A study of Mus musculus with 48 samples.

Results

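Liver transcripts of male C57BL/6J mice kept on a high-fat diet (HFD) were set against those of males kept on a low-fat diet (LFD), with every mouse of both groups given the vehicle alone. Of the 48 livers of the series, the 12 whose labels read male and vehicle control made up the comparison, 6 on the HFD and 6 on the LFD, each sequenced as 1 poly(A) RNA library. Genes were kept where at least 6 of these 12 livers had at least 1 TPM, a read level scaled to transcript length and library total, which left 13453 of the 49315 genes listed. Lipid droplet genes, fatty acid oxidation genes, genes driven by CAR and PXR, the receptors for foreign compounds, heat shock genes and collagen genes were higher on the HFD. Genes of cholesterol synthesis and most genes that male mouse livers express above female ones were lower on the HFD. Cidea, a protein that helps lipid droplets fuse, had the largest rise, with a median of 103 TPM in HFD livers and 0.903 TPM in LFD livers. The steroid-reducing enzyme gene Hsd3b5 had the largest fall, with a median of 4.26 TPM in HFD livers and 396 TPM in LFD livers.

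The wider study crossed sex, diet and a weekly dose of either vehicle or a mixture of 3 dioxin-like pollutants, and livers were taken after 12 weeks. HFD and LFD vehicle females, and HFD and LFD males given the mixture, serve here only as comparisons, with 6 livers in each group. The mixture held the dioxin TCDD at 10 ng/kg, the furan PeCDF at 80 ng/kg and the biphenyl PCB126 at 140 ng/kg. The sources used here do not give the composition of the diets or of the vehicle, nor the age of the mice. Library names number the mice of each diet separately, and if each diet was its own cohort, cohort and diet cannot be told apart.

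A liver on a fatty diet takes up more fatty acid than it burns or exports and stores the rest as triglyceride in lipid droplets, which are coated by perilipins and enlarged by CIDE proteins. Fatty acids and their derivatives activate the nuclear receptor PPARα, whose targets carry out mitochondrial and peroxisomal oxidation, while the factor SREBP2 drives the genes of cholesterol synthesis when sterol in the cell is low. Male mouse liver also expresses a set of secreted pheromone-binding proteins, P450 enzymes and steroid enzymes that depend on the pulsed release of growth hormone in males, and female liver expresses a counterpart set.

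The libraries separated by diet. The first principal component of all tested genes carried 43.6% of the variance and ran between -34.4 and -16 in HFD livers and between 19.9 and 32.2 in LFD livers, with HFD replicate 1 nearest to the LFD side. Correlations of log2(TPM + 1) were 0.972 to 0.984 among HFD livers, 0.972 to 0.981 among LFD livers and 0.946 to 0.97 across diets. HFD livers had 13669.8 ± 234.3 genes at 1 TPM or more and LFD livers 13439.3 ± 192.1 (SD, n = 6 each), a difference of 230.5 that did not pass a two-sided exact permutation test over all splits of the livers (p = 0.0931). Skeletal muscle transcripts summed to 10.6 to 42.7 TPM in HFD livers, against 717 TPM in LFD replicate 4, 338 TPM in LFD replicate 5 and 17.1 to 23.1 TPM in the other LFD livers. List counts that leaving out these 2 livers moved by over 1.5 times are given without them beside the result. TPM values sum to the same total in every library, so they keep no read depth, and the depth behind each value is unknown. Nothing in the labels names a shared litter, cage or batch, and p-values measure only the spread between these libraries.

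By limma on log2(TPM + 1), with Benjamini-Hochberg adjustment over all 13453 genes, 3901 genes (29%) were higher and 865 (6.43%) lower on the HFD. The median log2 difference over all genes was 0.13, HFD minus LFD, as it is in every log2 change given here. The 20 genes highest in LFD livers held 29% to 31.2% of all TPM in HFD livers and 33% to 36.5% in LFD livers. They were picked by their LFD level, which by itself favours a lower share on the HFD. Of the 20, 7 were lower and 1 higher both on this scale and on the scale that follows. TPM of all other genes move up when such genes hold less, and how much of the median difference this gives was not tested. After scaling by trimmed means, which brought the median difference to 0, 1851 genes were higher and 1678 lower. A gene is therefore said to have risen or fallen only where it passed the test on both scales. That left 1851 genes risen (13.8%) and 865 fallen (6.43%), and these percentages are the background for every list count that follows. Of these, 284 rose and 174 fell by at least 1 on the log2 scale. Only 35 tested genes reached the minimum in all 6 HFD livers and in 0 LFD livers, and 9 the reverse, genes whose direction the filter fixes. The risen counts below include such genes, 3 macrophage genes, 2 CAR and PXR targets, 2 monocyte and inflammation genes and 1 each of the fatty acid uptake, AhR, ATF4, female-biased, stellate and secreted regulator lists, and the fallen count of male-biased genes includes 1. Those named below are given by their values, with no test. Genes that met the minimum mostly in the livers of 1 diet, Sult1e1 and Mogat1 among them, are tested below. The filter favoured the direction of these genes without fixing it. A log2 change on this scale understates the fold difference of genes near 1 TPM.

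Most genes of the lipid droplet rose. Of 16 tested members of that list, 12 rose and 0 fell, with a median log2 change of 1.16 beside 0.13 for all genes. Cidea was at 84.2, 103 and 145 TPM (lowest, median, highest) in HFD livers and at 0.126, 0.903 and 4.12 TPM in LFD livers, a log2 change of 5.62 (SE 0.36, adjusted p = 6.66e-07). Its partner Cidec, which makes large droplets (ENSMUSG00000030278, GRCm38 chromosome 6, 113424634 to 113435760, minus strand), was at 108, 162 and 242 TPM in HFD livers and 2.7, 7.65 and 13.1 TPM in LFD livers (log2 change 4.38, SE 0.29, adjusted p = 8.52e-07). For both genes every HFD liver lay above every LFD liver. Mogat1, an enzyme that builds diacylglycerol, was at 9.87, 16.3 and 18.5 TPM in HFD livers and 0.188, 0.449 and 2.26 TPM in LFD livers (3.26, SE 0.24, adjusted p = 1.56e-06). Plin2, the main droplet coat protein of hepatocytes, was at 534, 602 and 714 TPM in HFD livers and 181, 276 and 339 TPM in LFD livers (1.22, SE 0.15, adjusted p = 5.7e-05). Plin4 and Mogat1 also had separate groups, with Plin4 at a log2 change of 2.69 (SE 0.41, adjusted p = 0.000289). Fitm2, which acts in droplet formation at the endoplasmic reticulum, rose by 1.08 (SE 0.12, adjusted p = 2.33e-05). The lipolysis inhibitor gene G0s2 rose by 1.42 (SE 0.32, adjusted p = 0.00403) with groups that overlapped. Plin5, which couples droplets to mitochondria, had a log2 change of 0.69 that passed on the TPM scale and not with scaling (adjusted p = 0.0888), and Plin1, the adipocyte perilipin, fell short of the filter.

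**Figure D1:**
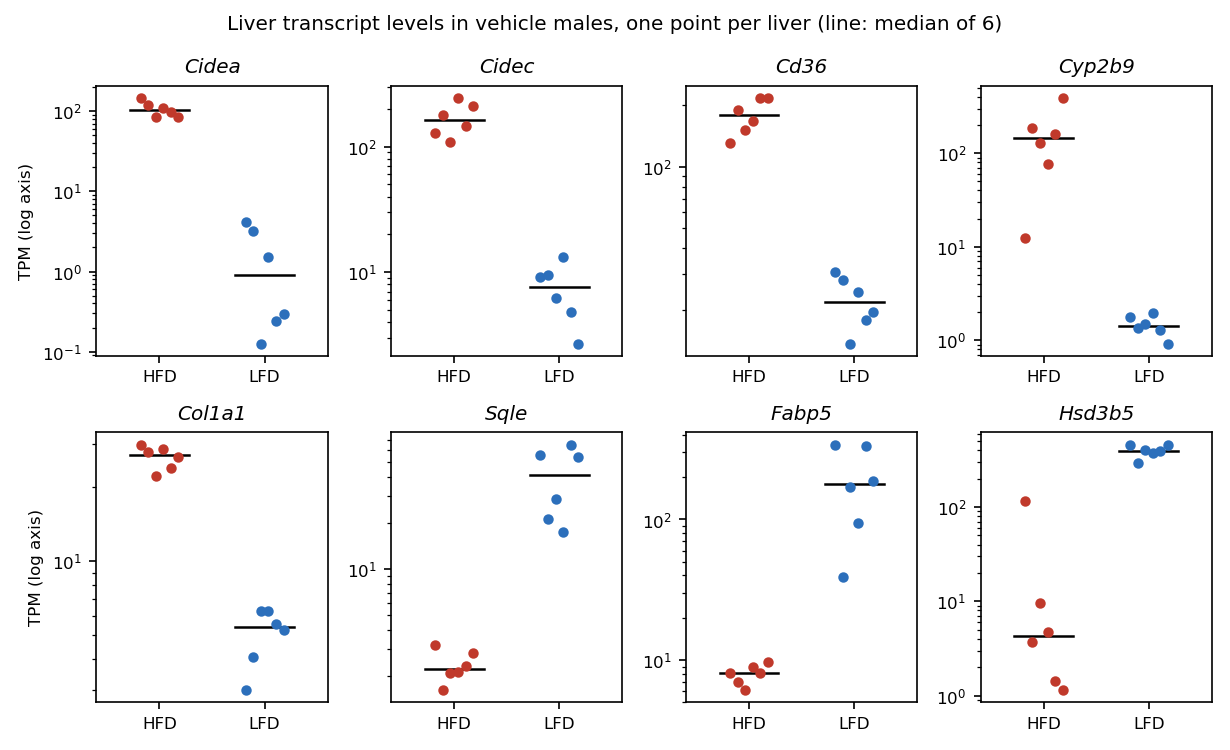
TPM of 8 genes in each of the 6 HFD and 6 LFD livers of vehicle males, 1 point per liver with a line at the median, each panel on its own log axis. The diets do not overlap in any panel, and HFD replicate 1 is the HFD liver nearest to the LFD livers for Cyp2b9 (12.5 TPM) and Hsd3b5 (115 TPM).

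Among fatty acid uptake and binding genes, 6 of 16 tested rose and 1 fell (median 0.25). Cd36, the fatty acid translocase (ENSMUSG00000002944, chromosome 5, 17781690 to 17888801, minus strand), was at 130, 179 and 216 TPM in HFD livers and 13.7, 22 and 30.8 TPM in LFD livers (2.97, SE 0.18, adjusted p = 6.66e-07). The transport protein gene Slc27a4 rose by 0.63 (SE 0.07, adjusted p = 2.3e-05) and Fabp2, the intestinal-type fatty acid binding protein, by 1.46 (SE 0.21, adjusted p = 0.000191). Fabp5, the epidermal-type binding protein, went the other way. It was at 6.11, 8.08 and 9.72 TPM in HFD livers and 38.8, 179 and 340 TPM in LFD livers (-4.12, SE 0.43, adjusted p = 1.79e-05), and the LFD livers spread widely while staying above every HFD liver. Pparg, the adipogenic nuclear receptor, was at 16.4, 18.8 and 25.3 TPM in HFD livers and 2.87, 6.29 and 10.8 TPM in LFD livers (1.54, SE 0.24, adjusted p = 0.000349), and the groups did not overlap.

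Targets of PPARα and genes of fatty acid oxidation and ketogenesis rose as a set. Of 37 tested genes, 30 rose and 0 fell, with a median log2 change of 0.85 and a lowest value of 0.14. The summed level of the list was 13157 to 16532 TPM in HFD livers and 6576 to 9709 TPM in LFD livers. Ehhadh, the peroxisomal bifunctional enzyme, was at 380, 453 and 571 TPM in HFD livers and 164, 183 and 210 TPM in LFD livers (1.32, SE 0.10, adjusted p = 2.66e-06). Acaa1b, a peroxisomal thiolase, rose by 1.85 (SE 0.21, adjusted p = 3.4e-05). In mitochondria the medium-chain dehydrogenase Acadm rose by 1.03 (SE 0.13, adjusted p = 6.25e-05), Hadh by 1.00 (SE 0.08, adjusted p = 4.65e-06) and Etfdh, which passes electrons to ubiquinone, by 0.53 (SE 0.05, adjusted p = 1.35e-05). Cpt1a, the gate for fatty acid entry into mitochondria, was at 361, 413 and 589 TPM in HFD livers and 225, 258 and 322 TPM in LFD livers (0.70, SE 0.12, adjusted p = 0.000701). The groups of all these oxidation genes were separate.

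The largest changes of that list belonged to families whose members share sequence, so single members are less certain than the family. The fatty acid hydroxylase Cyp4a14 was at 68.8, 250 and 439 TPM in HFD livers and 5.31, 8.5 and 84.7 TPM in LFD livers (3.97, SE 0.61, adjusted p = 0.000294). LFD replicate 2, at 84.7 TPM, lay above the lowest HFD liver. Cyp4a10 was at 256, 377 and 714 TPM in HFD livers and 15.8, 38.8 and 235 TPM in LFD livers (2.91, SE 0.51, adjusted p = 0.000763). The acyl-CoA thioesterases Acot1, Acot2, Acot3 and Acot4 had log2 changes of 2.07, 2.60, 3.34 and 1.71, and all 4 rose. Outside such families, the pantetheinase Vnn1 was at 103, 134 and 167 TPM in HFD livers and 9.31, 22.5 and 45.9 TPM in LFD livers (2.52, SE 0.32, adjusted p = 7.53e-05). Pdk4, which blocks the use of glucose by pyruvate dehydrogenase, rose by 1.49 (SE 0.31, adjusted p = 0.00268). Ppara itself had a log2 change of 0.49 that did not pass with scaling (adjusted p = 0.0716), and the hormone gene Fgf21 had 0.86 (SE 0.34, adjusted p = 0.0674).

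More lipogenic genes fell than rose. Of 22 tested, 1 rose and 8 fell, with a median of -0.29. Acss2, which makes acetyl-CoA from acetate, was at 33.1, 42.4 and 51.3 TPM in HFD livers and 63.4, 162 and 220 TPM in LFD livers (-1.72, SE 0.28, adjusted p = 0.000426). Acly, which makes it from citrate, was at 99.8, 119 and 165 TPM in HFD livers and 183, 561 and 965 TPM in LFD livers (-1.83, SE 0.38, adjusted p = 0.00238). The glycolytic enzyme gene Pklr fell by 0.92 on the log2 scale (SE 0.19, adjusted p = 0.00209). For these 3 genes the diets were separate, and the LFD livers spread over a much wider range than the HFD livers. Fatty acid synthase, Fasn, was at 165, 191 and 242 TPM in HFD livers and 185, 561 and 944 TPM in LFD livers (-1.23, SE 0.39, adjusted p = 0.0258). Its groups overlapped, and its call ended without any 1 of 4 livers, with adjusted p from 0.0501 to 0.0576. Scd1, the stearoyl-CoA desaturase, was at 16471, 24119 and 32438 TPM in HFD livers and 6104, 14160 and 23392 TPM in LFD livers, a log2 change of 0.90 that did not pass with scaling (adjusted p = 0.0755). Srebf1, the lipogenic transcription factor gene, had 0.41 (SE 0.15, adjusted p = 0.0529) and the elongase Elovl6 had -0.50 (SE 0.40, adjusted p = 0.37). The polyunsaturated fatty acid elongase Elovl5 was the member that rose (0.71, SE 0.16, adjusted p = 0.00425).

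Triglyceride synthesis and lipolysis genes had 5 members risen and 2 fallen of 19 (median 0.30). The carboxylesterase Ces1g rose by 1.06 (SE 0.12, adjusted p = 3.16e-05) and lysosomal acid lipase, Lipa, by 0.68 (SE 0.08, adjusted p = 6.16e-05). The acyltransferases Agpat2 and Agpat3 rose by 0.68 (SE 0.12) and 0.47 (SE 0.07). Lpin1, a phosphatidate phosphatase, was at 51.7, 71.9 and 183 TPM in HFD livers and 131, 248 and 448 TPM in LFD livers (-1.59, SE 0.30, adjusted p = 0.00144), and HFD replicate 4 alone reached the LFD range. Pnpla3, a droplet lipase-like gene, was at 1.71, 2.53 and 3.9 TPM in HFD livers and 3.37, 9.79 and 38.9 TPM in LFD livers (-1.61, SE 0.46, adjusted p = 0.0159).

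Genes of cholesterol synthesis fell. Of 26 tested genes of the pathway and its SREBP2 targets, 0 rose and 23 fell, with a median of -1.23, beside 6.43% of all genes fallen. Their summed level was 1554 to 1885 TPM in HFD livers and 2041 to 3632 TPM in LFD livers. Along the pathway, the mevalonate enzymes Pmvk and Mvd had log2 changes of -1.53 and -1.97. Idi1 and Fdps, which make and join the isoprene units, also fell, with -2.21 for Idi1 (SE 0.21, adjusted p = 1.03e-05) and -2.56 for Fdps (SE 0.24, adjusted p = 1.02e-05). Squalene epoxidase, Sqle (ENSMUSG00000022351, chromosome 15, 59315077 to 59331192, plus strand), was at 1.62, 2.23 and 3.21 TPM in HFD livers and 17.6, 41.4 and 65.1 TPM in LFD livers (-3.47, SE 0.29, adjusted p = 4.7e-06). After the sterol ring is closed, Cyp51 fell by 2.00 (SE 0.20, adjusted p = 1.33e-05) and Tm7sf2 by 1.27 (SE 0.09, adjusted p = 1.09e-06). Every HFD liver lay below every LFD liver for these genes. Hmgcs1, at the entry of the pathway, was at 79.5, 101 and 142 TPM in HFD livers and 97, 214 and 351 TPM in LFD livers (-0.89, SE 0.29, adjusted p = 0.0267). Its groups overlapped, and its call ended without any 1 of 5 livers, with adjusted p from 0.0527 to 0.058. The sterol sensor Insig1 had -1.08 (SE 0.25, adjusted p = 0.00433), and Srebf2, the gene of SREBP2, had -0.28 (SE 0.07, adjusted p = 0.00551). Ggps1, with 0.09, was 1 of the 3 members that did not pass on both scales.

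**Figure D2:**
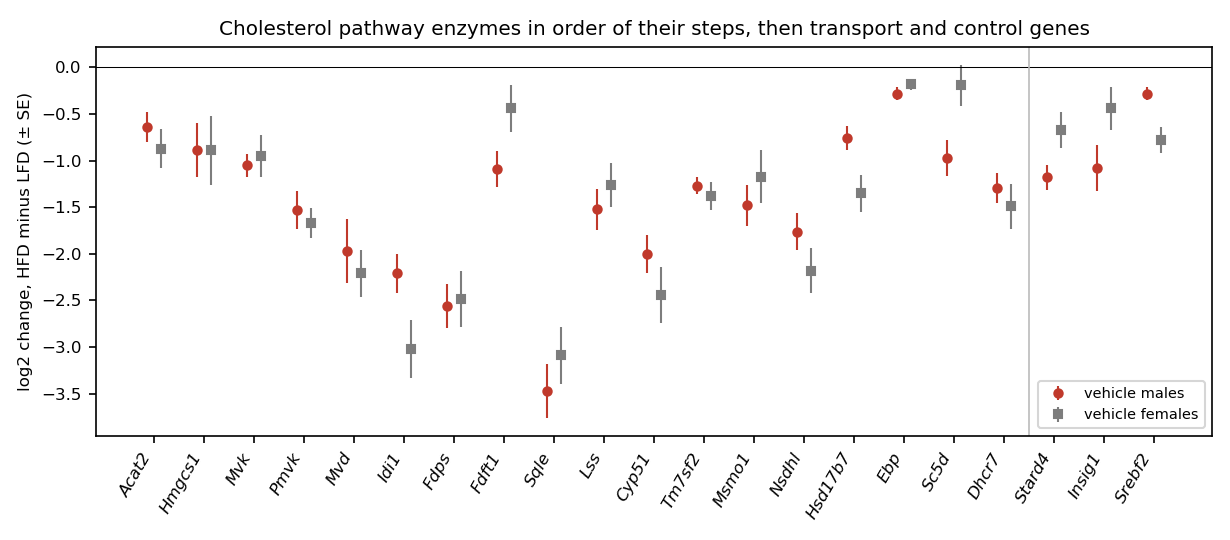
Log2 change, HFD minus LFD, with its standard error for selected cholesterol pathway enzymes in the order of their steps and, right of the grey line, for transport and control genes, in vehicle males (circles) and vehicle females (squares). Sqle is lowest in both sexes, at -3.47 in males and -3.09 in females.

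Promoter windows of these genes are shown because the list fell together. SREBP2 binds sterol response elements and acts with NF-Y, which binds the CCAAT box. RefSeq windows of GRCm38.p6, 250 bases before to 50 bases after a gene's start, were searched on both strands for CCAAT and for the element TCACNCCAC, motifs chosen after the values were seen. Of the 26 genes, 18 had a window, and 17 of these (94.4%) held CCAAT, against 41.1% of the 27025 genes with a window. TCACNCCAC was in 1 of the 18, Hmgcs1 (5.56%, against 1.44%), and in 2 of 27 windows of the fatty acid oxidation list, which rose (7.41%). The windows of Hmgcs1 (chr13:119690101-119690400, plus strand), Cyp51 (chr5:4104648-4104947, minus strand) and Mvd (chr8:122443373-122443672, minus strand) are given 5′ to 3′ with the matches in capitals, in which ATTGG is CCAAT on the other strand and the longer match of Hmgcs1 is the sterol element. A match describes letters in the window and not a bound site.
Hmgcs1: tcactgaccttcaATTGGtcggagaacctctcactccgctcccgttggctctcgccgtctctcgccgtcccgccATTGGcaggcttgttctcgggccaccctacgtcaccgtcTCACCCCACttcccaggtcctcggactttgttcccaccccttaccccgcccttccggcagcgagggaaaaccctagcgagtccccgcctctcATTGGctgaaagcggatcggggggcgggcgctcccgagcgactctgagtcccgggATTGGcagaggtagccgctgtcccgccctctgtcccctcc
Cyp51: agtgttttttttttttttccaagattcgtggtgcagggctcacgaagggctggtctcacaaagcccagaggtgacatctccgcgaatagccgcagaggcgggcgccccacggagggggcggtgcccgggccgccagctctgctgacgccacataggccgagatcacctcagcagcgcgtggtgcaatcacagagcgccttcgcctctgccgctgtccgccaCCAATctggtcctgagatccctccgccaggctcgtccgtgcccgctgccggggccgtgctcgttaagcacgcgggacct
Mvd: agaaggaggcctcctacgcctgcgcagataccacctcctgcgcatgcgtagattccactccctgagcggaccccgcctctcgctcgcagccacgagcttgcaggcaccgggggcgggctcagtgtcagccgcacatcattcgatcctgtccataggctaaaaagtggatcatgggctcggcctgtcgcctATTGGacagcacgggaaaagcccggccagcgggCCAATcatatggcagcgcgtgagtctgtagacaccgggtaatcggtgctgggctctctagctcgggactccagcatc
In Hmgcs1 the CCAAT matches begin 237, 176 and 45 bases before the start and at base 11 of the transcript, and the sterol element begins 137 bases before the start. In Cyp51 the match begins 29 bases before the start, and in Mvd the matches begin 60 and 27 bases before it.

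Bile acid genes changed in both directions, with 8 risen and 3 fallen of 26 (median 0.15). Cyp7a1, which starts bile acid synthesis from cholesterol and limits its rate, was at 65.2, 114 and 144 TPM in HFD livers and 31.2, 58.5 and 66 TPM in LFD livers (1.07, SE 0.23, adjusted p = 0.00315), with groups that overlapped at their edges. Cyp7b1, the oxysterol hydroxylase of the alternative pathway, was at 33.4, 47.3 and 94.1 TPM in HFD livers and 142, 186 and 317 TPM in LFD livers (-1.98, SE 0.25, adjusted p = 7.45e-05). It is also more abundant in male than in female liver. The uptake transporter Slc10a1 was at 489, 600 and 677 TPM in HFD livers and 975, 1238 and 1592 TPM in LFD livers (-1.10, SE 0.13, adjusted p = 3.84e-05). Abcc3, which exports bile acid conjugates to blood, rose by 2.06 (SE 0.21, adjusted p = 1.5e-05), Abcb4, which moves phospholipid into bile, by 0.90 (SE 0.09, adjusted p = 9.96e-06), and the sterol exporter Abcg5 by 1.02 (SE 0.11, adjusted p = 1.72e-05). Among lipoprotein genes 3 rose and 4 fell of 23 (median 0.11). Apom, an apolipoprotein of HDL, was at 115, 126 and 137 TPM in HFD livers and 294, 341 and 455 TPM in LFD livers (-1.51, SE 0.10, adjusted p = 6.66e-07). Apoa1, the main HDL protein, fell by 0.85 (SE 0.11, adjusted p = 0.000105), while Apoa4 rose by 1.80 (SE 0.28, adjusted p = 0.000354) and Apoc1 by 0.57 (SE 0.09, adjusted p = 0.000339).

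Male-biased liver genes fell on the HFD. Of 32 tested, 28 fell and 1 rose (0 rose without the 2 LFD livers with muscle transcripts), with a median of -1.49, and their summed level was 10630 to 35690 TPM in HFD livers and 39332 to 66951 TPM in LFD livers. Female-biased genes had 15 members risen and 0 fallen of 26 tested (median 1.01), and 15 further members of that list fell short of the filter. Hsd3b5 (chromosome 3, 98618634 to 98630252, minus strand) was at 1.14, 4.26 and 115 TPM in HFD livers and 292, 396 and 458 TPM in LFD livers (-5.71, SE 0.76, adjusted p = 0.000106). Moxd1, a copper monooxygenase-like gene, was at 0.0955, 0.166 and 0.649 TPM in HFD livers and 6.79, 54.7 and 201 TPM in LFD livers, and it passed the filter through the LFD livers alone. Selenbp2, a selenium-binding protein gene, fell by 3.46 (SE 0.39, adjusted p = 3.16e-05) and Egfr, the epidermal growth factor receptor, by 2.13 (SE 0.24, adjusted p = 3.13e-05), each with separate groups. Susd4, at -2.33 (SE 0.24), and the organic anion transporter Slco1a1, at -2.76 (SE 0.54), also fell.

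HFD replicate 1 stood apart from the other 5 HFD livers in these genes. Its male-biased sum was 35690 TPM, against 10630 to 19104 TPM in the other HFD livers, and its female-biased sum was 692 TPM, against 1275 to 2743 TPM. Its Hsd3b5 level of 115 TPM compares with 1.14 to 9.62 TPM in the other 5. The labels give nothing that sets this liver apart. Without it 28 of 32 male-biased genes fell and 0 rose, 17 of 26 female-biased genes rose and 0 fell, and Hsd3b5 had a log2 change of -6.5 (adjusted p = 5.08e-07). Major urinary proteins, the pheromone carriers of male urine, and Serpina1 protease inhibitors are near-identical copies whose reads can be split between them, so their single values are uncertain. Mup7 was at 51.7, 289 and 2310 TPM in HFD livers and 2102, 4698 and 8006 TPM in LFD livers (-4.05, SE 0.68, adjusted p = 0.000567), and Mup20 at 2048, 4012 and 7414 TPM in HFD livers and 9178, 10844 and 13691 TPM in LFD livers (-1.46, SE 0.23, adjusted p = 0.000394). The pseudogene Mup-ps20 had -5.38 and Mup11 -3.24. Serpina1e was at 44.3, 196 and 1287 TPM in HFD livers and 3982, 6413 and 10339 TPM in LFD livers (-4.93, SE 0.59, adjusted p = 5.28e-05).

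**Figure D3:**
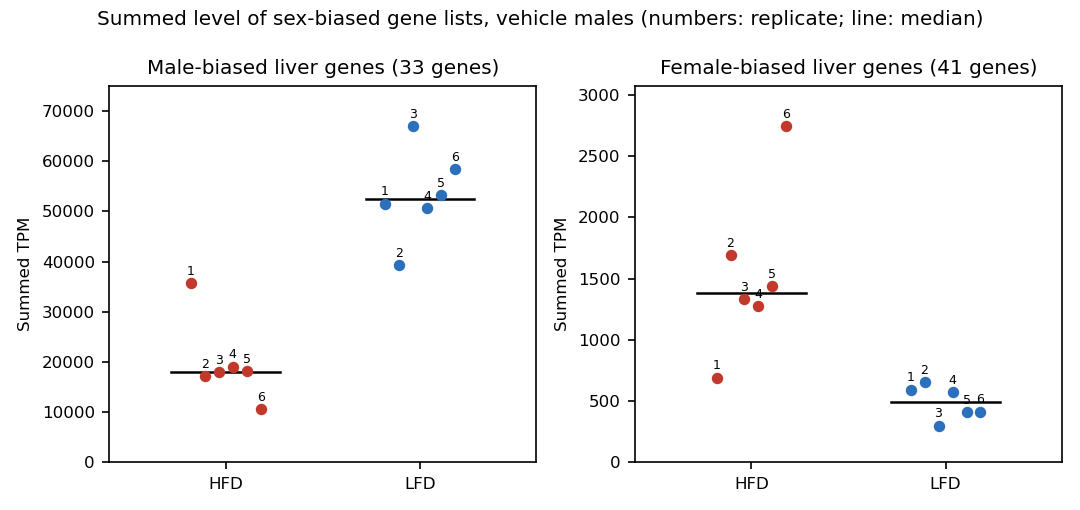
Summed TPM of 33 male-biased and 41 female-biased liver genes in each HFD and LFD liver of vehicle males, with the replicate number at each point and a line at the median. HFD replicate 1 is highest of the HFD livers for the male-biased sum (35690 TPM) and lowest for the female-biased sum (692 TPM), and the diets do not overlap in either panel.

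On the female-biased side, Sult1e1, the estrogen sulfotransferase, was at 14.4, 42.1 and 87.6 TPM in HFD livers and 0.133, 0.686 and 2.72 TPM in LFD livers (4.50, SE 0.41, adjusted p = 8.38e-06). Cyp2b9 was at 12.5, 146 and 387 TPM in HFD livers and 0.922, 1.42 and 1.95 TPM in LFD livers (5.47, SE 0.59, adjusted p = 2.48e-05). The groups of both genes were separate, and the HFD range of Cyp2b9 was wide. Cyp2a22 rose by 4.01 (SE 0.35, adjusted p = 6.4e-06). The transporter gene Slc22a27 was at 2.57 to 25.4 TPM in HFD livers and 0.0679 to 0.817 TPM in LFD livers, and it passed the filter through the HFD livers alone. Cyp2a4 and Cyp2a22, like Cyp2b9 and Cyp2b10, share sequence with relatives. Among growth hormone and IGF genes 3 rose and 4 fell of 18. Stat5a, which carries the growth hormone signal, rose by 0.82 (SE 0.08, adjusted p = 1.69e-05), the carrier Igfbp3 rose by 0.79 (SE 0.12), the carrier Igfbp2 fell by 0.96 (SE 0.14, adjusted p = 0.000241), and the prolactin receptor Prlr rose by 0.93 (SE 0.15). Igf1 was at 84.7, 89.7 and 99.1 TPM in HFD livers and 102, 111 and 129 TPM in LFD livers (-0.29, SE 0.07, adjusted p = 0.00445), a call that ended in a fit of all 48 libraries (adjusted p = 0.0538).

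Genes of foreign compound metabolism rose. Of 26 tested CAR and PXR targets, 19 rose and 0 fell (median 0.95), and the summed list was at 9410 to 12839 TPM in HFD livers and 3884 to 6230 TPM in LFD livers. The list shares members with the female-biased list, Cyp2b9 among them, so their counts overlap. Cyp3a11, the main drug-metabolising P450 of the Cyp3a family, was at 722, 822 and 1093 TPM in HFD livers and 76.6, 134 and 304 TPM in LFD livers (2.56, SE 0.27, adjusted p = 2.12e-05). Cyp2b10, the classic CAR target, was at 4.5, 10.3 and 23.4 TPM in HFD livers and 0.139, 0.603 and 0.94 TPM in LFD livers. The retinal dehydrogenase Aldh1a1 was at 1966, 2327 and 2439 TPM in HFD livers and 655, 807 and 1166 TPM in LFD livers (1.42, SE 0.12, adjusted p = 5e-06). Gstm3, a glutathione transferase, rose by 2.54 (SE 0.27, adjusted p = 2.41e-05), and Gsta2, a transferase of the alpha class, by 2.91. Every HFD liver lay above every LFD liver for Cyp3a11, Aldh1a1, Gstm3 and Gsta2. Gsta1, a close copy of Gsta2, was at 4.7 to 25.2 TPM in HFD livers and 0 to 0.59 TPM in LFD livers. Cyp2b10 and Gsta1 passed the filter through the HFD livers alone. Nr1i3, the gene of CAR itself, had 0.79 and did not pass with scaling (adjusted p = 0.0553).

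Targets of Nrf2, the factor of the oxidant response, had 16 members risen and 1 fallen of 22 (median 0.88). The quinone reductase Nqo1 was at 14.6, 21.6 and 28 TPM in HFD livers and 4.36, 5.97 and 6.6 TPM in LFD livers (1.75, SE 0.14, adjusted p = 2.9e-06). Epoxide hydrolase, Ephx1, rose by 1.55 (SE 0.13, adjusted p = 3.69e-06), sulfiredoxin, Srxn1, by 1.22 (SE 0.11, adjusted p = 9.96e-06), the carbonyl reductase Cbr3 by 1.64 (SE 0.17, adjusted p = 1.72e-05), and Gclc, which limits glutathione synthesis, by 0.74 (SE 0.12, adjusted p = 0.000417). Gstp1, also a male-biased gene, was the member that fell, at 939, 1033 and 1854 TPM in HFD livers and 2512, 3128 and 5203 TPM in LFD livers (-1.52, SE 0.19, adjusted p = 7.86e-05). Nfe2l2, the gene of Nrf2, rose by 0.42 (SE 0.09, adjusted p = 0.0034). Of 16 tested genes tied to the dioxin receptor AhR, 6 rose and 2 fell (median 0.59). The risen members, Nqo1, Ugdh (0.92) and Htatip2 (0.91) among them, are shared in part with the lists above. Cyp1a2, a P450 induced through AhR, was at 230, 336 and 422 TPM in HFD livers and 549, 657 and 774 TPM in LFD livers (-1.04, SE 0.14, adjusted p = 0.000155). Cyp1a1 was at 0.534, 0.864 and 1.14 TPM in HFD livers and 1.19, 1.83 and 2.17 TPM in LFD livers (-0.57, SE 0.12, adjusted p = 0.00351).

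Heat shock genes rose, with 11 risen and 0 fallen of 15 and a median of 0.69. The small chaperone Hspb1 (ENSMUSG00000004951, chromosome 5, 135887919 to 135889563, plus strand) was at 56.6, 68.8 and 98.4 TPM in HFD livers and 14.3, 18.8 and 21.5 TPM in LFD livers (1.90, SE 0.13, adjusted p = 9.67e-07). Hsp90aa1, the inducible HSP90, was at 105, 143 and 159 TPM in HFD livers and 54.9, 60.9 and 91.1 TPM in LFD livers (1.07, SE 0.13, adjusted p = 4.64e-05). The co-chaperones Dnaja1 and Bag3 rose by 0.85 (SE 0.08) and 0.84 (SE 0.11), and Hsph1 by 1.14 (SE 0.18), each with separate groups. Hsf1, the gene of the heat shock factor, had 0.12. The heat shock element, written here as TTCNNGAANNTTC and searched on both strands, was in the windows of 4 of the 11 members that had one, Hsph1, Hspd1, Hspe1 and Chordc1 (36.4%, against 0.662% of all genes with a window). The window of Hspe1, the mitochondrial co-chaperone HSP10, is shown because it holds overlapping matches, which begin 89 and 84 bases before the start (chr1:55087898-55088197, plus strand, 5′ to 3′, matches in capitals).
Hspe1: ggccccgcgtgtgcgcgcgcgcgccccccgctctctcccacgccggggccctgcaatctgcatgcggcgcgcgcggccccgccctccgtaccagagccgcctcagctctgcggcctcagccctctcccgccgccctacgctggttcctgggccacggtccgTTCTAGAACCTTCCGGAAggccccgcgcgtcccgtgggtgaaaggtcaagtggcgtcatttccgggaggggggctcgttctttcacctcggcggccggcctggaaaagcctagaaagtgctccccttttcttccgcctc
Hspe1 itself rose by 0.52. AGGTCANAGGTCA, an exact spelling of the repeat that PPARα binds, was in 0 of 27 windows of the fatty acid oxidation list and in 0.0481% of all genes with a window. At so low a share, 0 matches in 27 windows cannot tell whether these genes hold PPARα sites.

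Among p53 targets 5 rose and 0 fell of 17 (median 0.36), with 1 fallen without the 2 LFD livers with muscle transcripts. The cell cycle inhibitor Cdkn1a was at 9.64, 20.3 and 40.7 TPM in HFD livers and 2.43, 3.62 and 6.19 TPM in LFD livers (2.08, SE 0.28, adjusted p = 0.000111). Targets of ATF4 had 2 risen and 3 fallen of 24 (median 0.13), with 1 risen without the 2 livers, and Atf4 itself fell by 0.35 (SE 0.08). Endoplasmic reticulum stress and chaperone genes had 0 risen and 2 fallen of 23, Xbp1 (-0.45, SE 0.11) and Ern1 (-0.57, SE 0.17). Of 15 tested cell cycle genes 5 rose and 1 fell, the replication genes Mcm3 (0.84), Mcm2 (0.91) and Pcna (0.45) among those that rose, while 9 further members, Mki67 and Top2a among them, fell short of the filter.

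Genes of monocytes, neutrophils and inflammation had 12 members risen and 0 fallen of 21 (median 0.87), and their sum was 181 to 256 TPM in HFD livers and 65.7 to 99.6 TPM in LFD livers. The monocyte attractant Ccl2 was at 4.02, 8.17 and 12.2 TPM in HFD livers and 0.129, 0.894 and 1.4 TPM in LFD livers (2.24, SE 0.24, adjusted p = 2.56e-05). S100a11 was at 62.8, 74 and 87.2 TPM in HFD livers and 15.7, 22.2 and 29.8 TPM in LFD livers (1.67, SE 0.13, adjusted p = 2.02e-06). Lcn2, the neutrophil and hepatocyte protein lipocalin 2, rose by 2.67 (SE 0.33, adjusted p = 5.7e-05) and the endotoxin co-receptor Cd14 by 1.02 (SE 0.14, adjusted p = 0.000165). In bulk tissue, more or fewer cells of a type and more or less RNA per cell cannot be told apart.

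Macrophage genes had 11 risen and 2 fallen of 24 (median 0.59). The 2 that fell were Fabp5 (-4.12) and the lysosomal protease gene Ctsl (-0.30, SE 0.07), a gene that many cell types express. Gpnmb was at 2.54, 3.45 and 5.48 TPM in HFD livers and 0.0508, 0.127 and 0.427 TPM in LFD livers, and the elastase Mmp12 at 2.58, 3.44 and 5.6 TPM in HFD livers and 0.0457, 0.0809 and 0.243 TPM in LFD livers. The integrin gene Itgax was at 1.75 to 3.27 TPM in HFD livers and 0.482 to 0.884 TPM in LFD livers. Gpnmb, Mmp12 and Itgax passed the filter through the HFD livers alone. Lgals3 rose by 1.36 (SE 0.15) and the lysosomal marker Cd68 by 0.82 (SE 0.12). Clec4f, the Kupffer cell lectin, was at 91, 98.9 and 121 TPM in HFD livers and 63.2, 86.4 and 154 TPM in LFD livers (0.15, SE 0.17, adjusted p = 0.534). Trem2, the receptor of lipid-associated macrophages, fell short of the filter.

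Of 11 tested T, B and NK cell genes 0 rose and 1 fell (Cd4, -0.72, SE 0.16). Among MHC genes 6 rose and 2 fell of 19 (median 0.18), the class II genes H2-Eb1 (1.00, SE 0.18) and H2-Ab1 (0.77, SE 0.15) among those that rose, and 4 rose and 1 fell without the 2 LFD livers with muscle transcripts. Interferon response genes had 2 risen and 2 fallen of 32 (median 0.13), and 1 of each without the 2 livers. The chemokine Cxcl10 rose by 1.44 (SE 0.24, adjusted p = 0.000642). Acute phase and complement genes had 9 risen and 7 fallen of 32, and 5 risen and 7 fallen without the 2 livers. The acute phase protein Orm3 was at 58.1, 124 and 221 TPM in HFD livers and 3.79, 6.33 and 12.9 TPM in LFD livers (3.99, SE 0.30, adjusted p = 2e-06). Fgb, a fibrinogen chain, was at 1799, 1911 and 2026 TPM in HFD livers and 2295, 3054 and 3503 TPM in LFD livers (-0.61, SE 0.09, adjusted p = 0.000226). Raet1d, a stress ligand for NK cells with near-identical neighbours, had 3.41.

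Collagens and other stellate cell genes rose, 19 of 30 tested with 0 fallen (median 0.66), and 22 rose without the 2 livers. Col1a1 (ENSMUSG00000001506, chromosome 11, 94936224 to 94953042, plus strand) was at 22.1, 27.1 and 29.7 TPM in HFD livers and 3, 5.41 and 6.31 TPM in LFD livers (2.20, SE 0.14, adjusted p = 6.66e-07). Col3a1 was at 26.8, 29.4 and 33.4 TPM in HFD livers and 5.7, 8.9 and 12.8 TPM in LFD livers (1.72, SE 0.16, adjusted p = 8.84e-06). The second chain of type I collagen, Col1a2, rose by 1.45 (SE 0.13, adjusted p = 8.1e-06) and Sparc by 0.91 (SE 0.10, adjusted p = 3.16e-05). Timp1, an inhibitor of matrix proteases, was at 1.68 to 4.47 TPM in HFD livers and 0 to 0.794 TPM in LFD livers, and it passed the filter through the HFD livers alone. Smooth muscle actin Acta2, the usual mark of activated stellate cells, was at 7.11, 8.67 and 10.2 TPM in HFD livers and 3.12, 6.15 and 12.3 TPM in LFD livers (0.38, SE 0.21, adjusted p = 0.185). Desmin, Des, had -0.30 and Lrat, the retinol-storing enzyme of stellate cells, 0.63, and neither passed on both scales. Cholangiocyte and ductular genes had 6 risen and 0 fallen of 16 (median 0.34). Anxa2, also expressed by other cells, was at 36.3, 46.6 and 60.6 TPM in HFD livers and 5.95, 9.19 and 12.3 TPM in LFD livers (2.27, SE 0.15, adjusted p = 6.66e-07). Krt8 rose by 1.04 (SE 0.08, adjusted p = 2e-06) and Krt23 by 2.28 (SE 0.33), while the bile duct keratin Krt19 had -0.07. Of 20 sinusoidal endothelial genes 4 rose and 0 fell (median 0.14), with Lyve1 at 1.10 (SE 0.19) and the scavenger receptor Stab2 at 0.25 (SE 0.10, adjusted p = 0.0714).

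Hepatocyte markers were abundant in every liver. Their sum was 115912 to 128121 TPM in HFD livers and 143997 to 194964 TPM in LFD livers, and 12 of 25 fell and 0 rose (median -0.33). Albumin, Alb, was at 46077, 51901 and 59625 TPM in HFD livers and 59552, 77623 and 108726 TPM in LFD livers (-0.60, SE 0.15, adjusted p = 0.0074). Ahsg, the plasma protein fetuin-A, fell by 0.64 (SE 0.09, adjusted p = 0.000191). The factor gene Cebpa fell by 0.36 (SE 0.09, adjusted p = 0.00655), and Hnf4a by 0.33 (SE 0.10, adjusted p = 0.0191), a call that ended without the 2 livers (adjusted p = 0.0581). Along the liver lobule, pericentral genes had 10 risen and 2 fallen of 21 (median 0.42) and periportal genes 1 risen and 8 fallen of 22 (median -0.14). Among pericentral genes Cyp2c37 rose by 1.28 (SE 0.18) and glutamine synthetase, Glul, by 0.46 (SE 0.08). Cadherin Cdh1 was at 2.43, 4.72 and 11.1 TPM in HFD livers and 15, 26.1 and 42.7 TPM in LFD livers (-2.17, SE 0.33, adjusted p = 0.000266), and Cps1, the first enzyme of the urea cycle, fell by 0.76 (SE 0.17, adjusted p = 0.00411). How far these lists move with the lower hepatocyte sum was not tested.

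Among secreted regulators 6 rose and 9 fell of 27 (median 0.11). Enho, the gene of adropin, was at 1.05, 2 and 3.61 TPM in HFD livers and 5.21, 13.8 and 34.9 TPM in LFD livers (-2.39, SE 0.36, adjusted p = 0.000273). Tsku, tsukushi, was at 98.2, 135 and 165 TPM in HFD livers and 18.4, 30.1 and 60.1 TPM in LFD livers (1.98, SE 0.26, adjusted p = 9.59e-05). Inhbe, an activin subunit, rose by 1.41 (SE 0.24, adjusted p = 0.000724), and Fetub, fetuin-B, fell by 0.58 (SE 0.07, adjusted p = 4.66e-05). In iron and metal handling 8 rose and 2 fell of 21 (median 0.40). The iron hormone hepcidin, Hamp, fell by 0.86 (SE 0.21, adjusted p = 0.00694), while the ferritin chain Fth1 rose by 0.81 (SE 0.11, adjusted p = 0.000103) and the transferrin receptor Tfrc by 0.83 (SE 0.11). The metallothioneins Mt1 and Mt2 rose by 2.12 (SE 0.48) and 2.98 (SE 0.57), with groups that overlapped.

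Retinoid genes had 5 risen and 3 fallen of 18. Cyp26a1, which degrades retinoic acid, was at 35.7, 48.8 and 53.9 TPM in HFD livers and 2.62, 6.96 and 11.4 TPM in LFD livers (2.70, SE 0.27, adjusted p = 1.33e-05), and the retinol dehydrogenase Rdh11 at 13.7, 16.2 and 22.4 TPM in HFD livers and 51.5, 78.2 and 113 TPM in LFD livers (-2.08, SE 0.20, adjusted p = 1.15e-05). The diets were separate for both. Sphingolipid and phospholipid genes had 7 risen and 2 fallen of 28, the ceramidase Acer2 (0.81, SE 0.08) and the sphingomyelinase Smpd3 (1.54, SE 0.18) among those that rose.

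Genes of carbohydrate and amino acid metabolism changed in both directions. Gluconeogenesis, glycolysis and glycogen genes had 6 risen and 4 fallen of 29, with pyruvate carboxylase, Pcx, at 0.54 (SE 0.09) and glycerol phosphate dehydrogenase, Gpd1, at 0.63 (SE 0.13). Insulin signalling genes had 1 risen, Foxo1 (0.56, SE 0.12), and 0 fallen of 18, with 2 risen without the 2 LFD livers with muscle transcripts. Urea cycle and amino acid genes had 3 risen and 8 fallen of 28, and one-carbon genes 5 risen and 6 fallen of 27, with Mthfd1l at 0.99 (SE 0.13) and Aldh1l1 at -0.40 (SE 0.06). Clock genes had 0 risen and 4 fallen of 18. Dbp, a clock output gene, had -0.49, and its call ended in a fit of all 48 libraries (adjusted p = 0.394). For nuclear respiratory chain genes the count rested on the scale, with 20 of 37 higher on the TPM scale and 3 risen on both, Uqcrc2 (0.30), Ndufb3 (0.52) and Cycs (0.43), and the count was 1 without the 2 livers with muscle transcripts. Of 13 genes of the mitochondrial genome 0 were called in either direction, also on the TPM scale alone. Ribosomal protein genes had 0 risen and 7 fallen of 40 (median -0.08). Among 21 nuclear receptors 2 rose, Pparg among them, and 1 fell, with 0 fallen without the 2 livers.

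Lists of other tissues were read beside these results. Adipose markers had 3 members risen of 5 tested, Cidea, Cfd and Fabp4, while the adipocyte-defining genes Adipoq, Lep and Plin1 were at 0 to 0.286 TPM in HFD livers. Adipoq and Plin1 reached 2.97 and 1.2 TPM in LFD replicate 4. Cfd, adipsin, was at 27.6, 38.6 and 331 TPM in HFD livers and 0.317, 1.07 and 11.9 TPM in LFD livers (4.22, SE 0.67, adjusted p = 0.000397), with HFD replicate 1 at 331 TPM and the other HFD livers at 27.6 to 55.1 TPM. Skeletal muscle (3 tested), adrenal cortex (3 tested) and red cell genes (7 tested) had 0 members called, and of pancreatic genes the 1 tested, Cela1, fell (-0.88, SE 0.14). The T, B and NK cell sum was 26.1 to 71.6 TPM in HFD livers, against 375 TPM in LFD replicate 4, most of it Ighm at 321 TPM. Without LFD replicates 4 and 5, 1487 genes rose and 731 fell.

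Several of the largest changes belong to none of the lists above. Ly6d, a membrane-anchored surface protein gene, was at 38.8, 56 and 97.8 TPM in HFD livers and 0.429, 2.98 and 14.2 TPM in LFD livers (3.96, SE 0.49, adjusted p = 6.26e-05). Tff3, a trefoil peptide gene, was at 4.19, 5.97 and 11.6 TPM in HFD livers and 65.4, 96 and 402 TPM in LFD livers (-4.14, SE 0.45, adjusted p = 2.62e-05). Chrna4, a nicotinic receptor subunit, was at 0.821, 1.75 and 2.57 TPM in HFD livers and 9.83, 46.1 and 106 TPM in LFD livers (-3.79, SE 0.51, adjusted p = 0.000115). In all 3 the diets were separate. Adgrf1, an adhesion receptor gene, was at 0.0643 to 0.404 TPM in HFD livers and 4.81 to 16.6 TPM in LFD livers, and it passed the filter through the LFD livers alone.

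**Figure D4:**
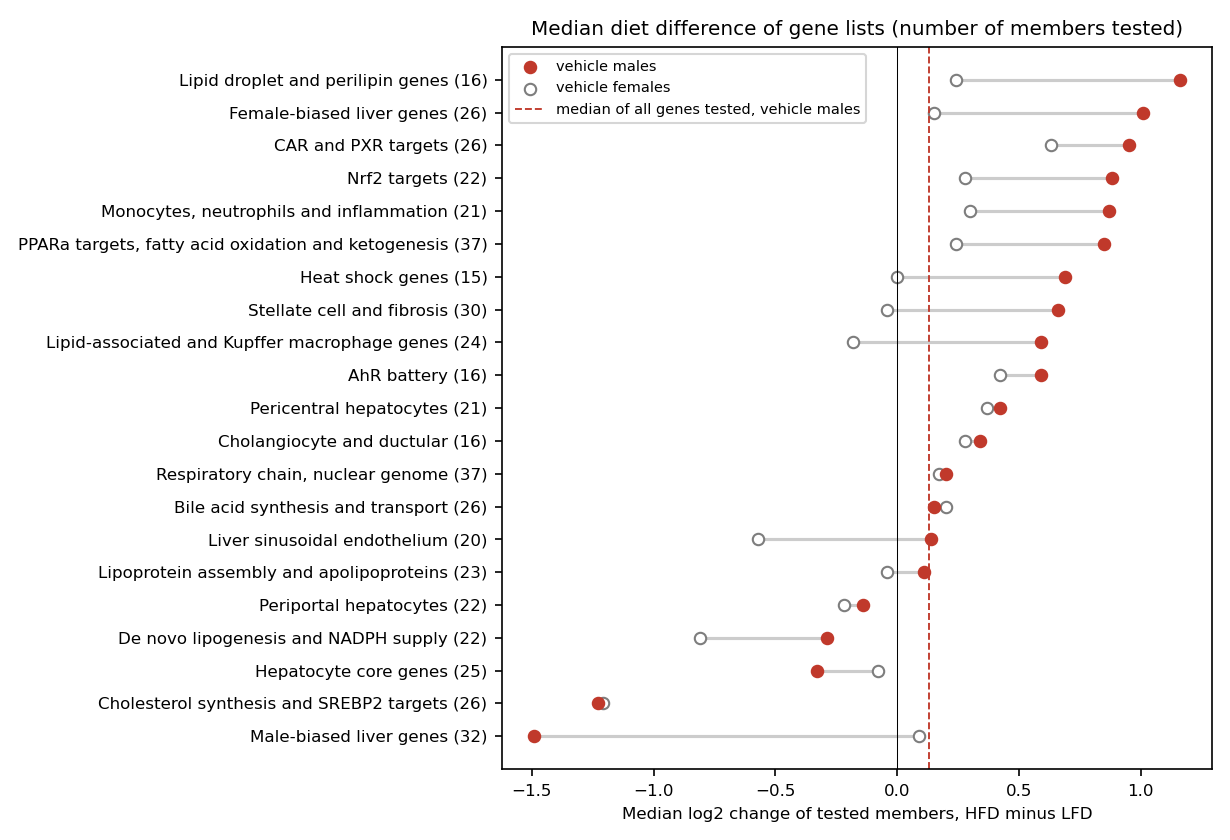
Median log2 change, HFD minus LFD, of the tested members of 21 gene lists in vehicle males (filled) and vehicle females (open), with the number tested in brackets and the median of all genes in males as a dashed line at 0.13. Cholesterol synthesis lies at -1.23 in males and -1.21 in females, while male-biased genes lie at -1.49 in males and 0.09 in females.

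Vehicle females, which share no library with the males, were compared by diet in the same way. In females 1801 genes rose (13.4%) and 1627 fell (12.1%) on both scales, with a median of -0.01 over all genes. Of the 1851 genes risen in males, 658 also rose in females, which is 35.5% of the male and 36.5% of the female genes, and 59 fell in females. Of the 865 fallen in males, 311 also fell in females, 36% of the male and 19.1% of the female genes, and 41 rose. The interaction of diet and sex, tested by limma over all 24 vehicle livers, was higher in males for 1003 genes (7.46%) and lower for 502 (3.73%) on both scales. Among the male calls, 512 risen genes (27.7%) and 229 fallen genes (26.5%) had such a difference in the same direction. The male livers that picked these genes also enter the interaction, which by itself favours a difference in that direction.

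Cholesterol synthesis was lower on the HFD in both sexes. In females 0 of 26 rose and 18 fell, with a median of -1.21. Sqle fell by 3.47 in males and 3.09 in females, and its male minus female difference was -0.38 (adjusted p = 0.608). Fabp5 fell in both sexes, with -4.12 in males and -4.30 in females. The keratin gene Krt23 rose in both, by 2.28 in males and 2.75 in females. Lipogenic genes had 3 risen and 15 fallen in females against 1 and 8 in males, with Acss2 at -2.59 in females, and Scd1 differed between the sexes (0.90 in males, -0.82 in females, difference 1.71, adjusted p = 0.00458). So did Srebf1, with 0.41 in males and 1.45 in females (difference -1.04, adjusted p = 0.00275).

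Lipid droplet and oxidation genes differed between the sexes in their diet difference. Of the droplet list 8 of 16 members had a higher diet difference in males and 0 a lower one, beside 7.46% and 3.73% of all genes. Cidea averaged 107 ± 23.4 TPM in HFD males and 1.58 ± 1.7 TPM in LFD males, against 0.743 ± 0.357 TPM in HFD females and 0.521 ± 0.355 TPM in LFD females (SD, n = 6 each), a male minus female difference of 5.41 (SE 0.42, adjusted p = 6.03e-08). Cidec rose in both sexes, by 4.38 in males and 1.38 in females (difference 3.00, adjusted p = 2.26e-05). Plin2 had -0.11 in females (difference 1.33, adjusted p = 0.000226), Plin5 fell by 1.57 in females (difference 2.26, adjusted p = 2.43e-05), and Cd36 rose by 0.88 in females (difference 2.08, adjusted p = 7.87e-05). In the oxidation list 16 of 37 members had a higher diet difference in males and 0 a lower one. Cyp4a14 had -0.11 in females (difference 4.08, adjusted p = 0.000257). Its mean level was 1196 ± 120 TPM in HFD females and 1356 ± 464 TPM in LFD females (SD, n = 6 each). In males it was 252 ± 123 TPM on the HFD and 22.6 ± 31.1 TPM on the LFD. Cd36 averaged 193 and 109 TPM in HFD and LFD females, and 179 and 22.4 TPM in HFD and LFD males. Acaa1b was one of the members that rose in both sexes, by 1.85 in males and 1.66 in females.

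**Figure D5:**
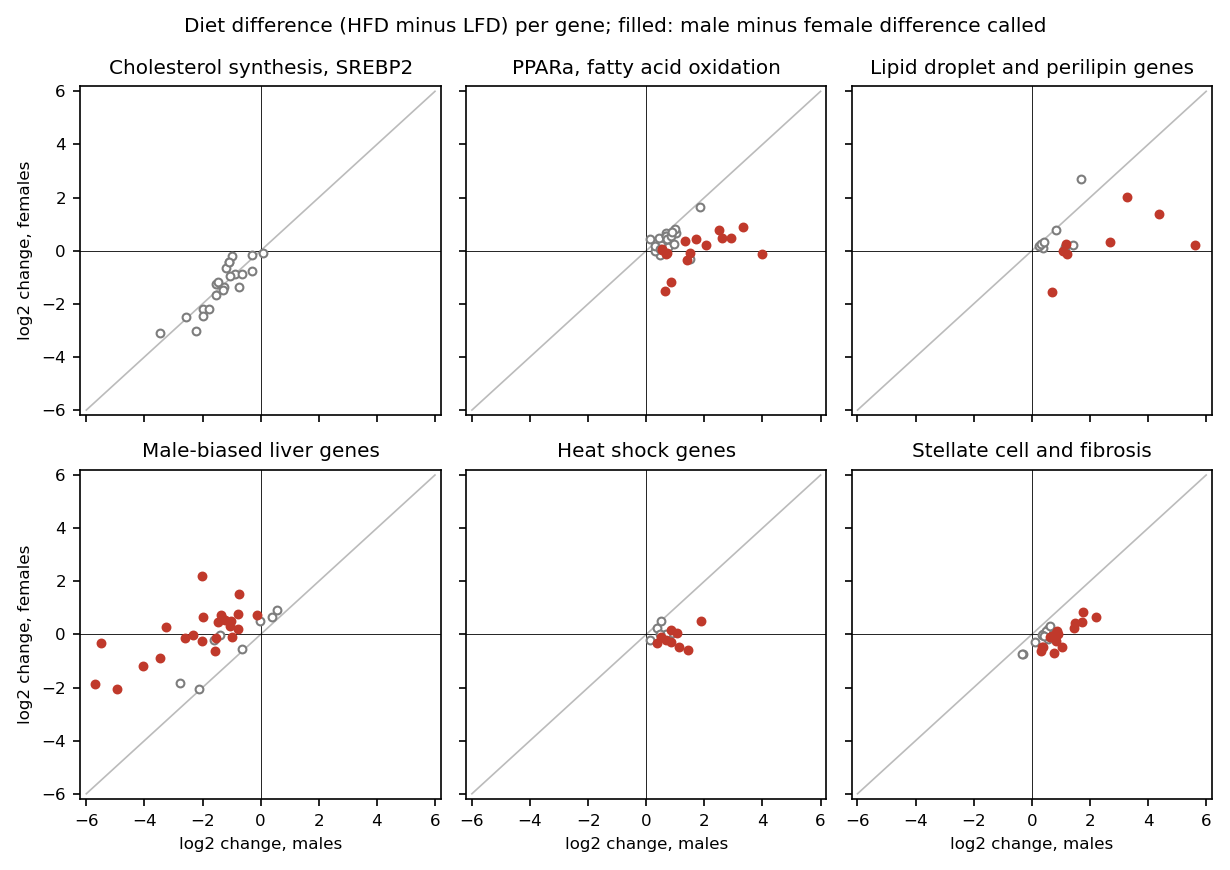
Log2 change, HFD minus LFD, of tested genes of 6 lists in vehicle males (horizontal) and vehicle females (vertical), filled where the male minus female difference passed the test on both scales, with the diagonal of equal changes. Not every member of the cholesterol and oxidation lists is shown. The cholesterol genes shown lie along the diagonal, while 24 of 32 male-biased genes lie left of it as filled points.

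Male-biased genes differed by sex in their response to diet. In females 11 of the 32 rose and 7 fell (median 0.09), and 24 had a lower diet difference in males while 0 had a higher one. Moxd1, whose direction in males the filter fixes, had -0.33 in females. It averaged 0.112 TPM in HFD females and 0.413 TPM in LFD females. A gene at such levels has little room to fall on this scale. How much of the sex difference of male-biased genes comes from low female levels was not tested. Hsd3b5 fell by 1.85 in females (difference -3.85, adjusted p = 0.00452). Tff3, which is in none of the lists, had -0.04 in females (difference -4.10, adjusted p = 6.87e-05). Egfr fell in both sexes, with -2.13 in males and -2.04 in females. Female-biased genes had 9 members with a higher and 2 with a lower diet difference in males. Cyp2a4 rose by 2.41 in males and fell by 1.05 in females (difference 3.46, adjusted p = 5.06e-05). Cyp2b9 had 5.47 in males and 0.16 in females (difference 5.32, adjusted p = 1.31e-05). Its level in females was high on both diets, at 647 ± 97.6 TPM in HFD females and 577 ± 62.1 TPM in LFD females (SD, n = 6 each).

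Heat shock, matrix and endothelial genes also differed by sex, and the members that differed had a higher diet difference in males. Of 15 heat shock genes 9 had a higher diet difference in males and 0 a lower one, and 2 rose and 1 fell in females. Hspb1 had 1.90 in males and 0.50 in females (difference 1.40, adjusted p = 0.000312). Of 30 stellate genes 17 were higher in males and 0 lower, and in females 1 rose and 5 fell. Col1a1 had 2.20 in males and 0.65 in females (difference 1.55, adjusted p = 0.000755). Of 20 endothelial genes 14 were higher in males and 0 lower, and in females 16 fell and 0 rose (median -0.57). Stab2 had 0.25 in males and fell by 0.45 in females (difference 0.70, adjusted p = 0.00888). Cdkn1a rose by 2.08 in males and fell by 2.06 in females (difference 4.14, adjusted p = 3.19e-06). In the other direction, Sult2a7, a sulfotransferase with near-identical relatives, had 0.15 in males and 3.96 in females (difference -3.80, adjusted p = 2.19e-06), and the carbonic anhydrase gene Car3 had 0.62 and 2.65 (difference -2.03, adjusted p = 1.34e-05). Skeletal muscle transcripts summed to 19.3 to 125 TPM in HFD females, against 8354 TPM in LFD female replicate 3 and 20.3 to 41.2 TPM in the other LFD females. Without that replicate 1013 genes were higher and 464 lower in the interaction of diet and sex. The list counts and medians given for females, and the list counts of this interaction, include the replicate, and its effect on them was not tested.

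Males given the pollutant mixture were a separate set of livers on the same diets. On both scales 1920 genes rose in them (14.3%) and 896 fell (6.66%), with a median of 0.15 over all genes. Of the genes risen with vehicle, 1227 also rose with the mixture, 66.3% of the vehicle and 63.9% of the mixture genes, and 0 fell. Of those fallen with vehicle, 515 also fell, 59.5% and 57.5% of the lists, and 0 rose. In the interaction of diet and exposure over the 24 male livers 1 gene was higher with vehicle (0.00743%) and 0 were lower (0%) by limma, with 965 genes at an unadjusted p under 0.05. The gene was Cyp1a1, with -0.57 with vehicle and -4.65 with the mixture, and 1 further gene was higher without LFD vehicle replicate 4. With vehicle and with the mixture, the log2 changes were 5.62 and 5.87 for Cidea, 4.38 and 4.69 for Cidec, -5.71 and -6.26 for Hsd3b5, -3.47 and -2.34 for Sqle, and 2.20 and 3.15 for Col1a1. Stellate genes had 26 of 30 risen with the mixture (median 1.25) against 19 with vehicle (median 0.66). Pericentral genes had 2 risen and 5 fallen with the mixture (median -0.07) against 10 and 2 with vehicle. The fall of lipogenic genes was not seen with the mixture, with 2 risen and 1 fallen (median 0.1) against 1 and 8 with vehicle (median -0.29). Clock genes had 0 risen and 0 fallen with the mixture against 0 and 4 with vehicle. No member of these lists passed the interaction test. HFD mixture replicate 6 held 21893 TPM of skeletal muscle transcripts. The other HFD mixture livers held 17.7 to 61.7 TPM and LFD mixture livers 16.5 to 55.3 TPM. Without replicate 6 the interaction counts were also 1 and 0. The list counts, medians and log2 changes given with the mixture include this replicate, and its effect on them was not tested.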

How the data were processed

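Poly(A) RNA of mouse liver was sequenced, with RNA taken by RNeasy plus mini kit and libraries made at Azenta Life Sciences, per the labels' protocols. The submitters' processing notes name FastQC, Trimmomatic 0.36, STAR 2.5.2b, DESeq2 and the build GRCm38, with no roles. No source used here states the counter, annotation, gene lengths or strand setting. The values used are TPM per gene as the authors deposited them, 1 column per liver, and TPM fixes each library's total, so a change in a few abundant genes moves all others and read depth is lost.

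Gene identifiers were placed with GENCODE M21. Rows with blank names (174 genes) or shared names (191 genes) were kept under their identifiers. Genes that reached 1 TPM in 6 or more of the 12 libraries entered a limma fit (version 3.58.1, R 4.3.3) of log2(TPM + 1), HFD minus LFD, with Benjamini-Hochberg adjustment over all tested genes and a threshold of 0.05. Interactions with sex and with exposure used the 24 vehicle livers and the 24 male livers. The second scale divided TPM by trimmed-mean factors, which were 1.019 to 1.085 in HFD livers and 0.9309 to 0.9627 in LFD livers. Requiring calls on both scales was chosen after seeing the data. Named genes are the 12 largest rises and falls whose higher group averaged 5 TPM or more, predicted genes left out, the 4 members of each list with the smallest p, the 6 largest interaction calls per direction, and further members chosen after their values were seen. Some list members are counted in their lists and not reported singly here. The members and lists were chosen with earlier results of these data known. HFD and LFD libraries with the same replicate number deviated together with r from -0.017 to 0.109. For replicates 3, 4 and 6 the same-numbered LFD library had the highest r. These low values cannot decide whether the livers were paired, and the main fit used no pairing. Alternatives were other scalings, a pseudocount of 0.1, no filter, all 48 libraries, library quality weights, a replicate block, a fold minimum and leaving out livers.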

Additional observations from a re-analysis of the deposited data

Results flagged for a closer look

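Single livers far from the other 5 of their group, by Dixon's ratio of gap to range, were looked for in 190 genes named in the text over 2 groups. Chance flags about 1 in 20 groups, which is about 19 here, and 33 were found, 17 in HFD and 16 in LFD livers. HFD replicate 1 stood above the other HFD livers in Hsd3b5 (115 TPM), Mup-ps20 (4.89), Serpina1e (1287), Mup7 (2310), Selenbp2 (86.7), Adgrf1 (0.404), Mup11 (119), Mup17 (586), Gstp1 (1854), Cfd (331) and Cd4 (1.46), and below them in Acadm (290). Of other HFD livers, replicate 6 was high in Etfdh (109 TPM), replicate 4 in Phlda3 (7.95) and Lpin1 (183) and replicate 2 in Tfrc (13.9), and replicate 3 was low in Col1a2 (9.79).

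Among LFD livers, replicate 4, the one with the most muscle transcript, was high in Pvalb (20.1 TPM), Ighm (321), Fabp4 (10.2), Krt19 (9.47), Ly6d (14.2) and Dnaja1 (72.1). Replicate 2 was high in Cyp4a14 (84.7 TPM), Raet1d (7.98), Apoa1 (20161), Gsta2 (14.4) and Mt2 (31), replicate 5 in Sult1e1 (2.72), Hsp90aa1 (91.1) and Gstm3 (76.3), replicate 1 in Tm7sf2 (103) and replicate 3 in Gstp1 (5203).

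Diet differences that differed between the sexes by the interaction test were largest, male minus female on the log2 scale, for Cidea (5.41), Cyp2b9 (5.32), Cdkn1a (4.14), Cyp4a14 (4.08), Cyp2a4 (3.46) and Ly6d (3.07). In the other direction they were largest for Moxd1 (-5.15), Mup-ps20 (-5.03), Mup17 (-4.21), Tff3 (-4.10), Hsd3b5 (-3.85) and Sult2a7 (-3.80). The filter on low values fixes the direction of Moxd1 in males. Mup-ps20 averaged 0.326 TPM in HFD females and 0.709 TPM in LFD females, levels with little room to fall on this scale. Between exposures, Cyp1a1 differed by 4.08, vehicle minus mixture.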

How the results depend on the processing

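On the TPM scale 3901 genes were higher and 865 lower, against 1851 and 1678 with trimmed-mean scaling and 1947 and 1627 with median centring, and a fold minimum, an absolute log2 change of at least 1, left 292 and 174. The interaction of diet and sex had 2283 genes higher and 502 lower on the TPM scale, against 1003 and 996 with trimmed means and 824 and 1151 with median centring. The interaction of diet and exposure, 1 higher and 0 lower, became 2 and 2 on the TPM scale in a fit of all 48 libraries and 6 lower on the TPM scale with library quality weights, while both alternatives gave 1 and 0 on both scales, and it became 2 higher without LFD replicates 4 and 5 on either count. Leaving out 1 liver at a time gave 3493 to 3681 higher and 730 to 898 lower on the TPM scale, 1563 to 1808 and 730 to 898 on both scales, 1943 to 2708 and 444 to 541 for diet by sex on the TPM scale, 811 to 1070 and 442 to 541 on both scales, and 1 to 2 and 0 to 1 for diet by exposure, where 1 lower gene appeared without HFD mixture replicate 2. The difference in genes detected was 153.9 to 280.1. A replicate block gave 3679 higher and 871 lower (1779 and 870 on both scales), 1007 and 514 for diet by sex on both scales, and 1 and 0 for diet by exposure. Among genes named here, directions reversed only in genes that were not called: mt-Cytb (-0.01 median centring, -0.04 trimmed means), Clec4f (within rounding of 0, trimmed means), and without LFD replicates 4 and 5 Mylpf (0.07), Pvalb (0.0), Star (0.05) and Krt19 (0.22), and leaving out 1 liver Star (-0.07 to 0.05), Cyp21a1 (-0.28 to 0.01) and Krt19 (-0.24 to 0.19). Calls ended in a fit of all 48 libraries for Hk2, Phlda3, Dbp, Nr1d1, Igf1, Srebf2 and Hmgcs1 (adjusted p from 0.0538 to 0.394), without LFD replicates 4 and 5 for Rpsa (0.0524) and Hnf4a, and without the filter for Hmgcs1 (0.0663), Fasn (0.0648) and Alb (0.426). The cause was not tested. Depth is unknown, so no limit from counting can be given.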
